A study of Mus musculus with 6 samples.

Results

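Endothelial cells line the blood vessels of the heart, and 44 genes that mark them or carry out their work were followed in RNA from isolated cardiomyocytes. The genes were taken as a named list of pan-endothelial, capillary, arterial and venous genes, and all 44 were present among the 24972 gene rows of the deposited table. The libraries came from 6 MX1gfp mice, a strain that reports the interferon-stimulated gene Mx1 with green fluorescent protein. Both groups carried that allele. The vehicle group (3 mice) received phosphate buffered saline, and the doxorubicin group (3 mice) received 1 intraperitoneal dose of doxorubicin, a DNA-damaging anthracycline, at 25 mg per kg of body weight in 100 microlitres. Hearts were taken after 48 hours, the ventricles were digested with collagenase, and the cells that settled by gravity were lysed for total RNA. Settling enriches for cardiomyocytes and does not sort them, so transcripts of other heart cells remain in the libraries. The labels give neither age nor sex.

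The endothelium regulates the passage of fuel, water and cells into the muscle, keeps blood from clotting and sends signals to the myocytes. In the heart most of it is capillary, specialised for taking up fatty acids. Growth and survival of endothelial cells depend on vascular endothelial growth factor (VEGF), the angiopoietins and Notch ligands. Transcription factors of the ETS and SOX families hold the identity of the cells.

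The authors' normalized counts summed to between 5410780 and 6498373 in the doxorubicin libraries and to between 7217949 and 7500386 in the vehicle libraries. About 3670000 to 6160000 reads stood behind the former and 7730000 to 11400000 behind the latter, as estimated from the spacing of low values, so depth and treatment cannot be told apart. Doxorubicin replicate 1 resembled the vehicle libraries (mean Spearman correlation with them across genes of 0.980), whereas replicates 2 and 3 stood apart (0.906 and 0.870). Vehicle replicate 3 and doxorubicin replicates 1 and 3 expressed Xist, and the other 3 libraries expressed the Y-linked Ddx3y. Markers of the labelled cell type were lower after doxorubicin: the summed level of 10 cardiomyocyte genes was 672210 to 770100 across vehicle, against 584750, 178060 and 164980 after doxorubicin. Markers of macrophages, neutrophils, fibroblasts and mesothelium were higher, as given further on. Values below are normalized counts; log2 differences, doxorubicin less vehicle, were taken on log2(value + 1), and adjusted p-values are from limma over all 12477 genes tested.

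Most endothelial genes were higher after doxorubicin. The difference was above 0 in 40 of the 44, against 49.6% of all genes tested, with a median of 0.79 against -0.0046 over all genes. In 30 members every doxorubicin library lay above every vehicle library (19.2% of all genes tested did so), and in 1 member, the apelin gene Apln, every doxorubicin library lay below (22.6% of all genes). No member passed an adjusted p of 0.05 in either direction (0 of 44), and 0.0% of all genes did so higher and 0.0% lower. The smallest adjusted p of a member was 0.0859, shared by 19 of them. At an unadjusted p under 0.05, limma gave 32 members higher (16.7% of all genes) and 1 lower (19.3%). Without doxorubicin replicate 1, limma called 30 members higher (19.4% of all genes) and 2 lower (21.8%), at an adjusted p under 0.05. In that comparison the groups did not overlap in 33 members higher (31.7% of all genes) and 3 lower (32.8%). Replicate 1 was the doxorubicin library most like vehicle, so leaving it out tends to enlarge differences and narrow the spread. Calls without it, here and below, are therefore description and add no independent support.

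The summed level of the 44 genes was 62029, 63319 and 48036 in vehicle replicates 1 to 3, or 0.859%, 0.858% and 0.640% of each library's total. It was 83788, 100160 and 131870 in doxorubicin replicates 1 to 3, or 1.29%, 1.65% and 2.44%. Every doxorubicin library thus held a larger share of endothelial transcripts than any vehicle library. Bulk RNA cannot tell more endothelial cells among the settled cells from more endothelial RNA per cell, or either from less cardiomyocyte RNA. The median member lay 0.53, 0.62 and 1.11 above the vehicle mean (log2) in doxorubicin replicates 1, 2 and 3. Vehicle replicate 3 was the lowest vehicle library in 40 of the 44 genes, and doxorubicin replicate 3 was the highest of all 6 libraries in 30. Among the 3 libraries that expressed Ddx3y the members' median difference was 0.53, with 35 of 44 members higher, and among those that expressed Xist it was 1.02, with 42 higher. These values carry no test, because the first class holds 1 doxorubicin library and the second 1 vehicle library.

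**Figure D1:**
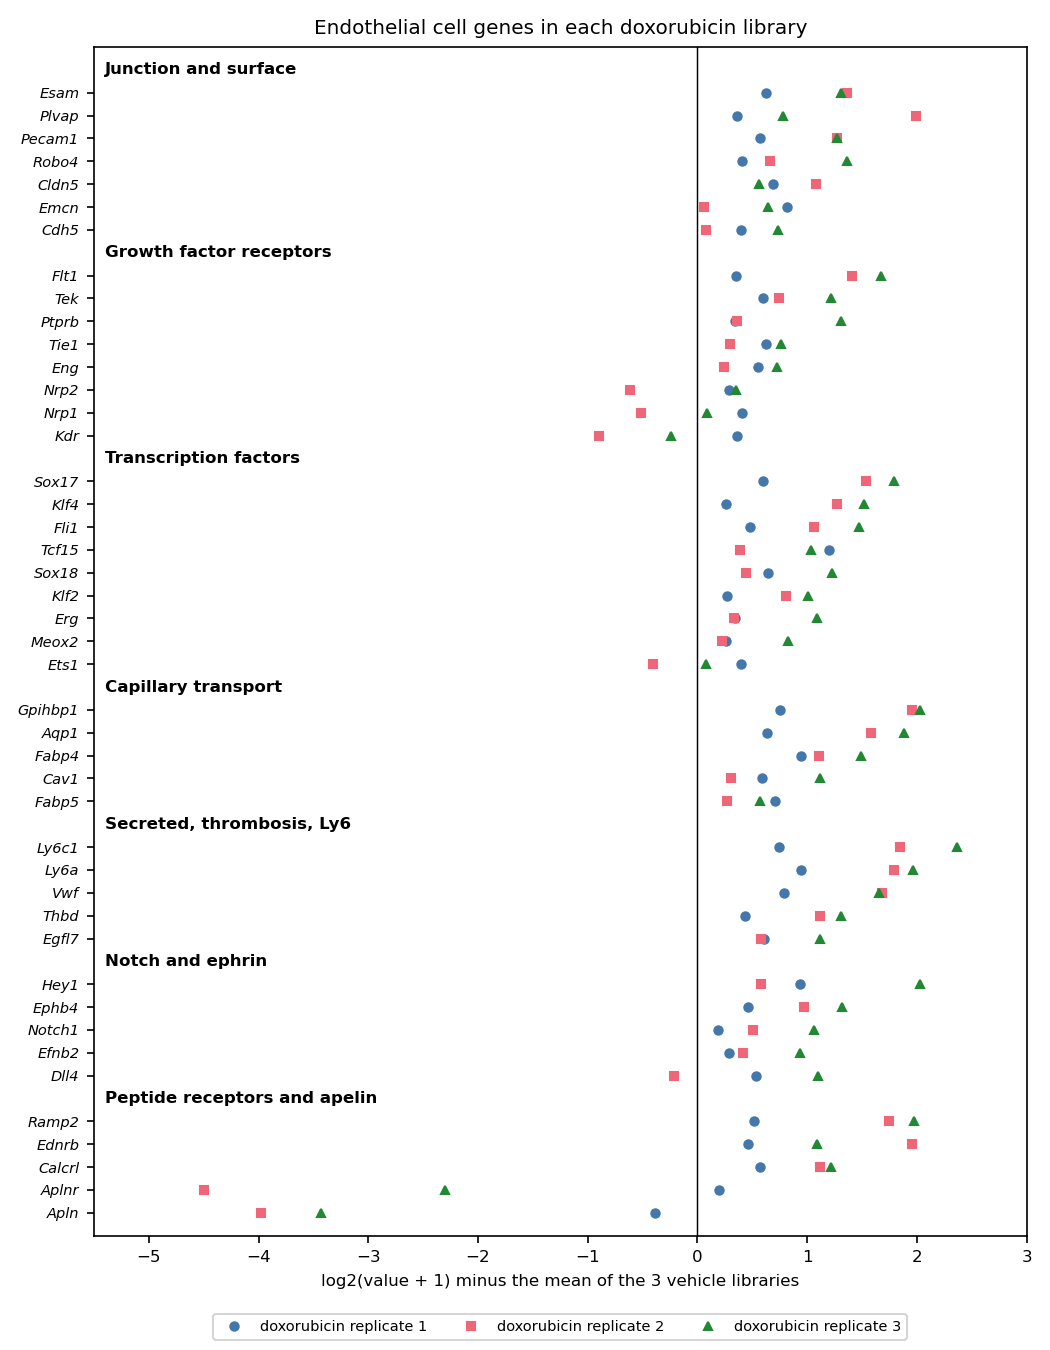
Each row is 1 of the 44 endothelial genes, and each point is 1 doxorubicin library's log2(value + 1) minus the mean of the 3 vehicle libraries, by role. Most points lie right of 0 (median member 0.53, 0.62 and 1.11 in replicates 1 to 3), whereas Apln and Aplnr lie far left in replicates 2 and 3, and Kdr, Nrp1, Nrp2, Ets1 and Dll4 lie left of 0 in replicate 2.

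**Figure D2:**
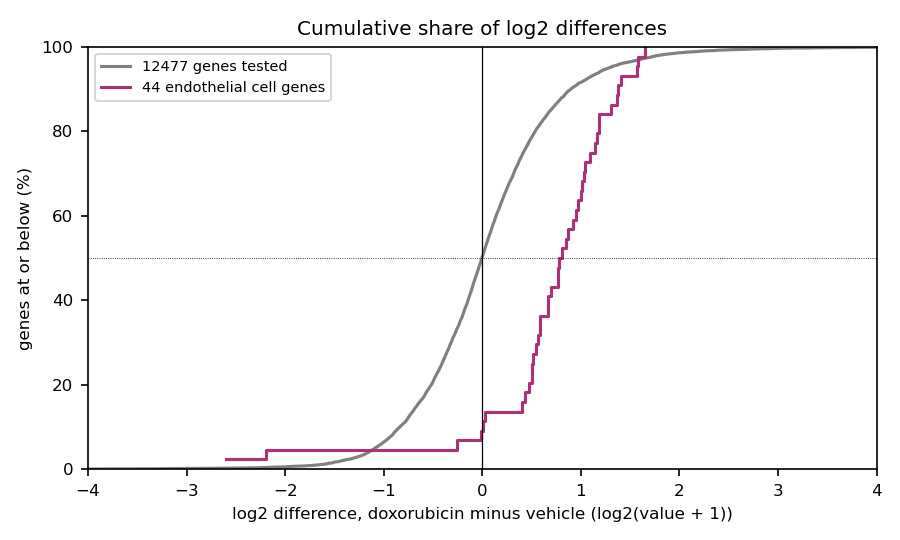
The curves give the percentage of genes at or below each log2 difference between doxorubicin and vehicle, for the 12477 genes tested (grey) and the 44 endothelial genes (purple). The purple curve crosses 50% at 0.79 and the grey curve at -0.0046.

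The promoters of members were searched for the motif of ETS factors, because 3 members (Erg, Fli1 and Ets1) encode such factors. Promoter sequences came from RefSeq (GRCm38.p6), which held 31 start sites for 25 of the 44 genes. The stretches below are the 200 bases before the listed start site, 5′ to 3′ on the gene's strand. Apln (chrX:48034854-48035053, minus strand) and Kdr (chr5:75978456-75978655, minus strand) lay at least 1 (log2) below the median member in doxorubicin replicates 2 and 3. In replicate 3 Kdr was just under the lowest vehicle value (3401 against 3448). Flt1 (chr5:147726012-147726211, minus strand) and Robo4 (chr9:37401772-37401971, plus strand) had all doxorubicin values above vehicle. Flt1 was among the highest members in replicates 2 and 3, and Robo4 was near the median member. For Kdr, Flt1 and Robo4 the listed start site lies inside the gene's outer coordinates, so all or part of the stretch does too. Capitals mark AGGAAG or CGGAAG, or their reverse complements.
Apln: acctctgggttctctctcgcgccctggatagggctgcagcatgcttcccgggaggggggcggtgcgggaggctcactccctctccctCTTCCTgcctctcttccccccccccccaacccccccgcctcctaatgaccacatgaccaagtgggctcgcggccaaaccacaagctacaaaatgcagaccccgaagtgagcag
Kdr: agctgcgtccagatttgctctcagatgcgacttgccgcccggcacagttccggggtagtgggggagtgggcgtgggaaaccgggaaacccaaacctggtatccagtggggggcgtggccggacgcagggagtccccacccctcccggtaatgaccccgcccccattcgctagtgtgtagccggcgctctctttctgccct
Flt1: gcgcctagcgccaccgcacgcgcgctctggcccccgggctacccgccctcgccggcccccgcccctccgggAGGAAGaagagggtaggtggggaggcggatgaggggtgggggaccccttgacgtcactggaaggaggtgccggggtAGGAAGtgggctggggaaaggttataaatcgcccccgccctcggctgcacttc
Robo4: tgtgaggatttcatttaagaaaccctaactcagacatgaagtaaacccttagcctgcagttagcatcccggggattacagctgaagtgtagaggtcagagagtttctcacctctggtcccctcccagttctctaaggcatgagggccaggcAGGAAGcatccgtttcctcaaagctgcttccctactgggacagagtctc
The motif occurred 2 times before Flt1, 1 time each before Robo4 and Apln, and 0 times before Kdr. These genes are examples, and higher and lower members were not compared for the motif. In the 250 bases before the start, 13 of the 31 windows of members held it on either strand (41.9%), against 39.2% of 32851 windows of all genes. ACGTG, the core bound by hypoxia-inducible factors, was in 2 of 31 (6.45%), against 16.6% of all windows. GTGGGAA, bound by the Notch effector RBPJ, was in 2 of 31 (6.45%), against 5.42%. CACCC, the core of KLF sites, was in 20 of 31 (64.5%), against 52.0%. A match describes letters only and does not show a bound site.

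Junction and surface genes had 7 of 7 differences above 0 (49.6% of all genes), a median of 0.81, and groups that did not overlap in 4 (19.2% of all genes). Pecam1 (chromosome 11, 106654213 to 106715281, GRCm38), an adhesion molecule of endothelial contacts, had 2681, 2655 and 1996 in vehicle and 3587, 5858 and 5833 in doxorubicin replicates 1 to 3. All doxorubicin values lay above all vehicle values, with means of 2444 ± 388 and 5093 ± 1305 (SD, n = 3), a log2 difference of 1.04 (SE 0.26) and an adjusted p in limma of 0.0859. Cdh5 (chromosome 8, 104101613 to 104144504), the cadherin of endothelial junctions, had 4401, 4624 and 3422 against 5431, 4336 and 6826. Its groups overlapped through doxorubicin replicate 2, and the difference was 0.40 (SE 0.25, limma adjusted p 0.267). The differences of these 2 markers therefore were unlike in size within the same libraries. Which cells the RNA of each came from was not tested. The ratio of Pecam1 to Cdh5 was 0.574 to 0.609 with vehicle and 0.660, 1.35 and 0.855 with doxorubicin.

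The other 5 junction and surface genes differed by 0.51 to 1.10. Esam, an immunoglobulin-like adhesion molecule, had the largest difference, 1.10, from 677 to 891 in vehicle to 1227, 2049.8 and 1973 in doxorubicin. Robo4, a receptor that stabilises vessels, differed by 0.81 and the claudin of tight junctions Cldn5 by 0.77, both with groups that did not overlap. Emcn, a sialomucin of capillaries and veins, differed by 0.51, and doxorubicin replicate 2 (608) lay inside the vehicle range of 525 to 655. Plvap, which forms the diaphragms of fenestrae and marks endocardium and veins, was the list's member with the lowest mean, with 81.3 to 120.1 in vehicle. It had 119, 371 and 159.6 after doxorubicin, a difference of 1.04 (SE 0.40, limma adjusted p 0.113) with overlapping groups. limma called 5 of these 7 genes higher without doxorubicin replicate 1 (19.4% of all genes were), all except Cdh5 and Emcn.

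Among receptors for VEGF, Flt1 was higher, and the sign of the Kdr difference depended on the scaling. Flt4, counted with the lymphatic genes, differed by 0.64 without overlap. Flt1 (chromosome 5, 147561604 to 147726438), the high-affinity receptor that also acts as a decoy, had 2350.4, 2717 and 2085 in vehicle and 3028, 6297 and 7572 in doxorubicin replicates 1 to 3. Every doxorubicin value lay above every vehicle value, with a log2 difference of 1.15 (SE 0.35, limma adjusted p 0.0859), and the table does not tell the soluble from the membrane form. Kdr (chromosome 5, 75932827 to 75979072), the main signalling receptor for VEGF, had 4340.4, 4319 and 3448 in vehicle and 5139, 2159 and 3401 in doxorubicin. Its groups overlapped. In the deposited values Kdr was highest of all 6 libraries in doxorubicin replicate 1 and below every vehicle library in replicate 2. In replicate 3 it lay just under the lowest vehicle value (3401 against 3448). The Kdr difference was -0.26 (SE 0.32, limma adjusted p 0.582), smaller than the spread between libraries. Without doxorubicin replicate 1 the Kdr difference was -0.57 (limma adjusted p 0.0916) and without replicate 2 it was 0.059. It was 0.043 with libraries scaled to equal totals and 0.097 after quantile normalization, so the sign depends on the scaling.

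A ratio of 2 genes within a library does not depend on its scaling, and these ratios were chosen after the values were seen. Flt1 to Kdr was 0.542, 0.629 and 0.605 with vehicle, 0.589 in doxorubicin replicate 1, and 2.92 and 2.23 in replicates 2 and 3. Kdr to Cdh5 was 0.986, 0.934 and 1.01 in vehicle, 0.946 in doxorubicin replicate 1 and 0.498 in both other replicates. For both ratios doxorubicin replicate 1 lay inside the vehicle range and replicates 2 and 3 outside it. The neuropilins, co-receptors for VEGF and semaphorins, also had differences near 0. Nrp1 had 2163 to 2733 in vehicle and 3309, 1747 and 2651 in doxorubicin (difference -0.0095, limma adjusted p 0.983), and Nrp1 to Cdh5 was 0.591 to 0.632 in vehicle and 0.609, 0.403 and 0.388 in doxorubicin. Nrp2 had 817 to 1045 in vehicle and 1112, 592 and 1159 in doxorubicin (difference 0.0076, limma adjusted p 0.987).

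The angiopoietin receptor Tek, which keeps vessels quiescent, had 1022, 1013 and 858 in vehicle and 1456, 1605 and 2234 in doxorubicin, with groups that did not overlap and a difference of 0.85 (SE 0.20, limma adjusted p 0.0859). Its partner receptor Tie1 differed by 0.56, and the phosphatase Ptprb, which dampens Tek signalling, by 0.67. Eng, a co-receptor for TGF-beta and BMP ligands, differed by 0.51. Tek, Tie1, Ptprb and Eng each had separate groups. Without doxorubicin replicate 1, limma called Flt1, Tek and Ptprb higher among the 8 growth factor receptors (3 of 8, against 19.4% of all genes), and no member of this group lower (0 of 8, against 21.8% of all genes).

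**Figure D3:**
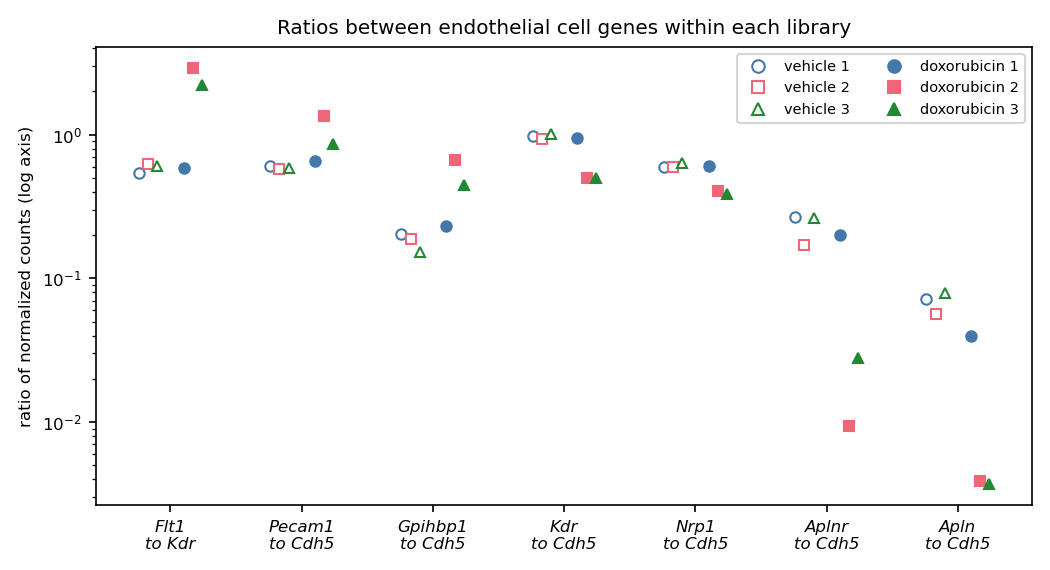
Each point is the ratio of the normalized counts of 2 endothelial genes in 1 library, on a log axis; open symbols are vehicle and filled symbols doxorubicin. For Flt1 to Kdr, doxorubicin replicate 1 (0.589) lies inside the vehicle range of 0.542 to 0.629 and replicates 2 and 3 lie above it. For Apln to Cdh5 all 3 doxorubicin libraries lie below the vehicle range of 0.0561 to 0.0791, replicate 1 at 0.0394, and for Aplnr to Cdh5 replicates 2 and 3 do.

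The apelin pathway held the largest differences of the list. Apelin is a peptide that widens vessels and strengthens contraction, and its receptor is made by endothelial cells of veins and growing capillaries. Apln (chromosome X, 48025146 to 48034853) had 314, 259 and 271 in vehicle and 214, 16.9 and 25.2 in doxorubicin replicates 1 to 3. All doxorubicin values lay below all vehicle values, with means of 282 ± 29.0 and 85.3 ± 111 (SD, n = 3), a log2 difference of -2.60 (SE 0.83) and a limma adjusted p of 0.0869. The values of replicates 2 and 3 rest on about 14 and 17 reads, against an estimated 272 to 495 in vehicle libraries. Aplnr (chromosome 2, 85136360 to 85139923), the receptor gene, had 1172, 796 and 896 in vehicle and 1079.9, 40.8 and 190.4 in doxorubicin. Replicate 1 lay inside the vehicle range and replicates 2 and 3 far below it, a difference of -2.20 (SE 1.00, limma adjusted p 0.155). With the vehicle-like doxorubicin replicate 1 left out, limma called both lower, Apln by -3.70 (adjusted p 8.12e-05) and Aplnr by -3.40 (adjusted p 0.00211). Without replicate 2 the differences were -1.91 for Apln and -1.05 for Aplnr, neither under an adjusted p of 0.05. Relative to Cdh5 in the same library, Aplnr was 0.172 to 0.266 in vehicle and 0.199, 0.00942 and 0.0279 in doxorubicin.

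The 3 other peptide receptor genes were higher, with groups that did not overlap (19.2% of all genes). Calcrl and Ramp2 encode the 2 parts of the adrenomedullin receptor, which keeps the endothelial barrier tight. Calcrl had 382, 361 and 278 in vehicle and 501, 732 and 783 in doxorubicin, a difference of 0.97 (SE 0.22, limma adjusted p 0.0859). Ramp2 had 359, 379 and 259 against 469.6, 1099.8 and 1289.8, a difference of 1.41 (SE 0.37, limma adjusted p 0.0859). The ratio of Ramp2 to Calcrl was 0.938, 1.05 and 0.932 in vehicle and 0.938, 1.5 and 1.65 in doxorubicin replicates 1 to 3, so the excess of Ramp2 appeared in the latter 2 libraries. Ednrb, the endothelin receptor of endothelial cells, which Schwann cells also express, had 197 to 288 in vehicle and 313, 885 and 488 in doxorubicin, a difference of 1.17. The Schwann cell marker Sox10 did not exceed 19.2 in any library.

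**Figure D4:**
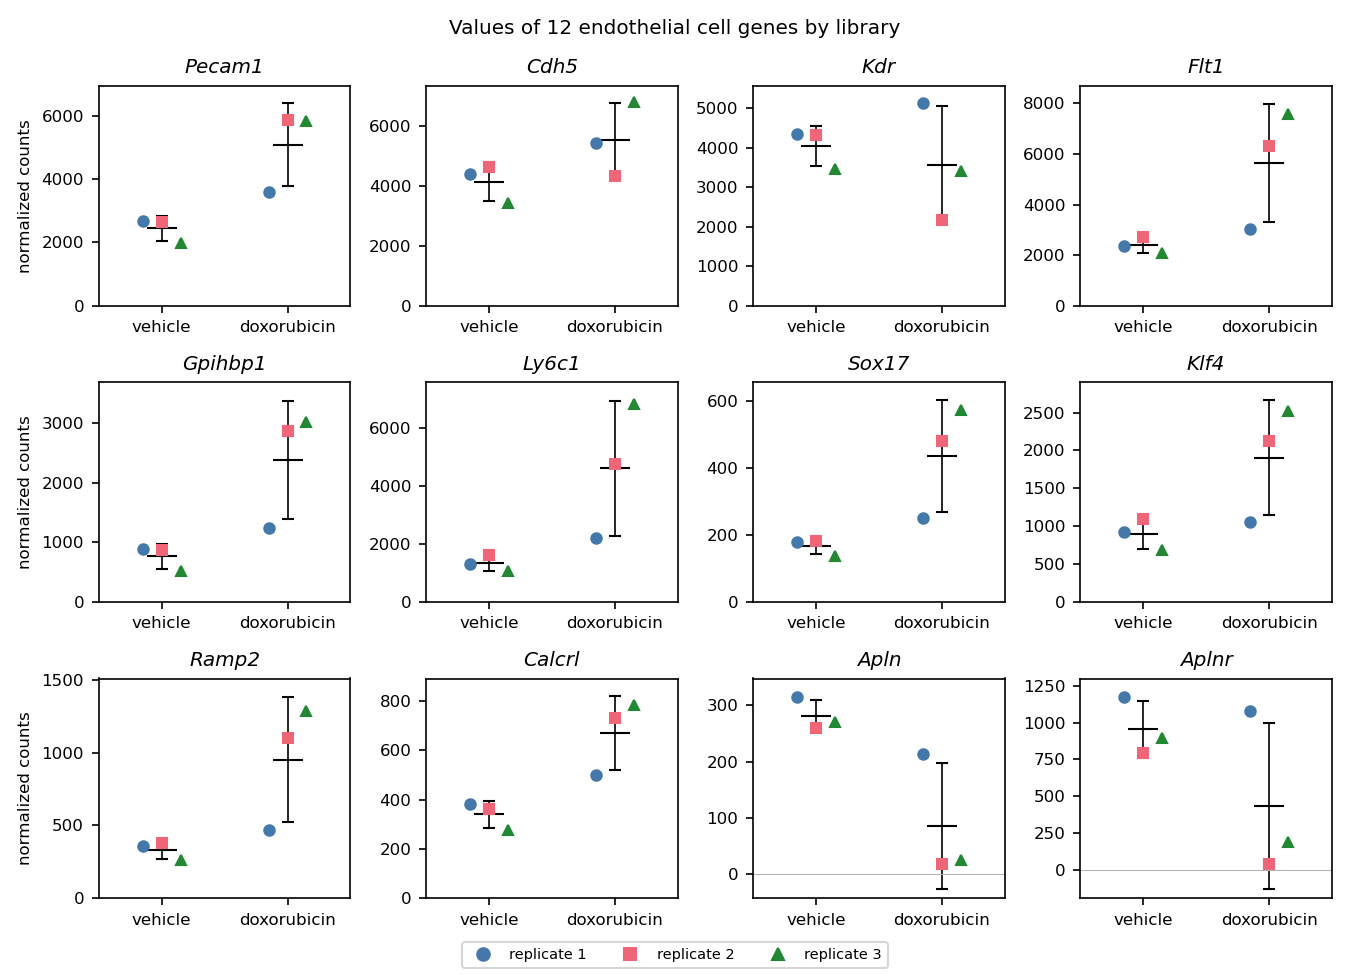
Normalized counts of 12 endothelial genes, with 1 point per library and the mean ± SD of each group of 3 in black. Pecam1, Flt1, Gpihbp1, Ly6c1, Sox17, Ramp2 and Calcrl have every doxorubicin library above every vehicle library, Cdh5, Kdr, Klf4 and Aplnr overlap, and Apln lies below vehicle in all 3.

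Genes of capillary transport were among the highest, with 5 of 5 differences above 0 (49.6% of all genes) and a median of 1.18. Per kilobase of transcript, Fabp4, a fatty acid carrier, was the most abundant member in vehicle (5986) and Aqp1, a water channel, the next (1972). Fabp4 had 5879, 6469 and 3742 in vehicle and 10027, 11240.3 and 14691 in doxorubicin, a difference of 1.18 (SE 0.30, limma adjusted p 0.0859). Aqp1 had 5560.0, 5665 and 4316 against 7974, 15439 and 18998, a difference of 1.37 (SE 0.36, limma adjusted p 0.0859). Gpihbp1 (chromosome 15, 75596630 to 75598213), which anchors lipoprotein lipase in capillaries, had 896, 869 and 523 against 1248, 2877 and 3027, a difference of 1.58 (SE 0.38, limma adjusted p 0.0859). The groups overlapped in none of these 3 genes. Gpihbp1 to Cdh5 was 0.153 to 0.204 in vehicle and 0.230, 0.664 and 0.443 in doxorubicin. Cav1, the coat protein of caveolae, differed by 0.67 without overlap, and Fabp5, whose doxorubicin replicate 2 (494) lay inside the vehicle range of 324 to 509, by 0.52. Adipocytes also make Fabp4, and the 5 adipocyte markers summed to at most 10.1 in any library. Red cells also contain Aqp1, and the erythroid markers summed to 1211 to 2104 in vehicle and 9027, 250 and 421 in doxorubicin replicates 1 to 3. Like Aqp1 they were above vehicle in replicate 1, and unlike Aqp1 they were below it in replicates 2 and 3; their part in the Aqp1 values was not tested.

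Secreted, anticoagulant and Ly6 genes had the highest median of any role, 1.37, and groups that did not overlap in 5 of 5 (19.2% of all genes). Ly6c1 and Ly6a are small surface proteins anchored by a lipid, and lie near each other on chromosome 15. Ly6c1 (75044018 to 75048920) had the largest difference above 0 in the list, with 1315, 1634 and 1079 in vehicle and 2213, 4764 and 6834 in doxorubicin (1.65, SE 0.40, limma adjusted p 0.0859). Ly6a (74994877 to 74998031) had 1015, 1023 and 859.6 against 1848, 3333 and 3756 (1.56, SE 0.28, limma adjusted p 0.0859), the smallest unadjusted p of the list at 0.00057. Both are uncertain, because monocytes and fibroblasts express Ly6 genes and near-identical copies of Ly6c1 may share reads. Vwf, the clotting factor carrier stored in endothelial granules, had 664, 897 and 818 against 1359, 2525 and 2479 (1.37, SE 0.27, limma adjusted p 0.0859). The anticoagulant receptor Thbd differed by 0.95 and the matrix protein Egfl7 by 0.77, both without overlap. Platelets also contain Vwf. The 5 platelet markers summed to 63.6 to 76.0 in vehicle and 139, 146 and 323 in doxorubicin, most of it from Pf4. Pf4, which macrophages also make, had 60.0 to 62.0 in vehicle and 126 to 304 in doxorubicin.

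Transcription factors of the list had 9 of 9 differences above 0 (49.6% of all genes), a median of 0.77 and groups that did not overlap in 6 (19.2% of all genes). Among ETS factors, Fli1 had 322, 273 and 219 in vehicle and 374, 562 and 744 in doxorubicin, a difference of 1.01 (SE 0.27, limma adjusted p 0.0859). Erg differed by 0.59 without overlap. Ets1 did not follow them, with 985 to 1233 in vehicle and 1452, 829.7 and 1162 in doxorubicin, a difference of 0.022 (SE 0.23, limma adjusted p 0.953). Among SOX factors of subgroup F, Sox17, which specifies arteries, had 179.8, 181 and 138 against 249.9, 481 and 574 (1.31, SE 0.31, limma adjusted p 0.0859). Sox18 differed by 0.77 without overlap. Tcf15 and Meox2 form a pair that sets fatty acid uptake in cardiac capillaries. Tcf15 had 241, 243 and 238 in vehicle and 554, 316 and 494 in doxorubicin (0.87, SE 0.22, limma adjusted p 0.0859), one of 6 members with their highest value in doxorubicin replicate 1. Meox2 differed by 0.43 with overlapping groups (limma adjusted p 0.190). Klf2 and Klf4, factors induced by blood flow and also by tissue dissociation, differed by 0.70 and 1.01. Klf4 had 689 to 1088 in vehicle and 1056, 2130.2 and 2524 in doxorubicin, so its groups overlapped through replicate 1, and those of Klf2 did not.

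Notch and ephrin genes, which separate arteries from veins, had 5 of 5 differences above 0 (49.6% of all genes) with a median of 0.58. The ligand Dll4 had 272 to 328 in vehicle and 432, 257 and 637 in doxorubicin, with overlap (0.47, SE 0.31, limma adjusted p 0.289). Its receptor Notch1 had 881, 969 and 721 against 967, 1206 and 1773 (0.58, SE 0.24, limma adjusted p 0.133), where 967 lay just under the highest vehicle value. The Notch target Hey1 had 118, 119.5 and 79.8 against 199.8, 156 and 427, without overlap (1.18, SE 0.37, limma adjusted p 0.0863). The arterial ligand Efnb2 and its venous receptor Ephb4 were both higher without overlap, by 0.55 and 0.92.

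Relative to the median member of the same library, 42 of the 44 genes lay within 0.5 (log2) in doxorubicin replicate 1, but 22 did so in replicate 2 and 27 in replicate 3. Members thus lay closer together in doxorubicin replicate 1 than in the other replicates. The share of all genes within such a distance was not taken. Lower than the median member by at least 1 in both replicates 2 and 3 were 5 genes, Kdr, Ets1, Nrp1, Apln and Aplnr. Higher by at least 0.5 in both were 8, namely Flt1, Vwf, Sox17, Aqp1, Gpihbp1, Ly6c1, Ly6a and Ramp2. Across the 44 genes the Spearman correlation of transcript length with the difference was -0.353, against 0.107 across 12076 genes with a length. For doxorubicin replicates 1 to 3 taken singly it was -0.524, -0.281 and -0.219 across members, against 0.152, 0.0352 and 0.134 across all genes. The change in replicate 1 was therefore not even across lengths. All genes of a correlation share the same 6 libraries, and lengths are those of the longest coding transcript in GENCODE.

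Endothelial genes outside the list were also mostly higher. Of 25 further pan-endothelial genes, 24 had a difference above 0, the median was 0.73, and the groups did not overlap in 18 higher (19.2% of all genes) and 0 lower (22.6%). limma called 17 of them higher (19.4% of all genes) and 0 lower (21.8%) without doxorubicin replicate 1. S1pr1, the receptor for the barrier lipid sphingosine 1-phosphate, had the largest difference, 1.44. Ecscr, a surface protein of endothelial cells, had the smallest unadjusted p, with 173, 155 and 139 in vehicle and 303, 286 and 275 in doxorubicin (0.89, limma adjusted p 0.0859). A list of 10 cardiac capillary genes had a median of 1.08, with 7 higher without overlap (19.2% of all genes) and 0 lower (22.6%). Lpl, the list's most abundant gene per kilobase in vehicle (12241), was its 1 gene below 0 (-0.41), with overlapping groups. Which cells the Lpl RNA came from was not tested. The largest differences of the list were in Timp4 and Car4, a carbonic anhydrase of capillaries. Timp4 had 316, 516 and 243 against 648, 2344 and 2809 (2.25). Car4 had 277, 358 and 249 against 575, 1690.4 and 1845 (2.06). The arterial list had 8 of 10 above 0 (median 0.66), led by Sema3g at 1.87. Of the 7 venous genes tested 6 were above 0 (median 0.96) and of 7 lymphatic genes 5 (median 0.85). Prox1, a lymphatic factor that cardiomyocytes also express, differed by -1.18.

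A list of vascular ligands, not limited to those of the receptors above, was mixed, with 11 of 16 above 0 and a median of 0.60. Vegfa, the ligand of Kdr and Flt1 made largely by myocytes, had 1851, 2832 and 2397 in vehicle and 2037, 372 and 606 in doxorubicin, a difference of -1.59 (limma adjusted p 0.0984) with overlap through replicate 1. Vegfb, which binds Flt1, had 3091, 2629 and 2599 against 1858, 1277 and 624 without overlap (-1.28, limma adjusted p 0.0859). Pgf, also a ligand of Flt1, had 36.0, 32.4 and 16.6 against 24.2, 305 and 119 (1.80, limma adjusted p 0.156). Angpt1, which activates Tek, had 404 to 463 in vehicle and 522, 175 and 119 in doxorubicin (-0.94). Adm, the ligand of Calcrl with Ramp2, had 58.0 to 74.3 in vehicle and 69.3, 181 and 156 in doxorubicin (0.86). Without doxorubicin replicate 1 limma called 8 of the 16 higher (19.4% of all genes) and 3 lower (21.8%), the latter being Vegfa, Vegfb and Angpt1.

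Markers of several other cell types differed beside the endothelial genes. The 10 macrophage markers were all higher (median 1.57, summed level 2489 to 2727 in vehicle and 4149, 6801 and 15479 in doxorubicin replicates 1 to 3). Of 6 neutrophil markers, 5 were tested and had a median of 3.99, with summed levels of 11.2 to 21.7 in vehicle and 55.0, 626 and 470 in doxorubicin. Fibroblast markers were higher in 9 of 10 (median 0.84, 14493 to 17902 against 21144, 55831 and 44878), 5 of them without overlap (19.2% of all genes). Their differences ran from -0.42 in Col3a1 to 1.67 in Dcn, with Col1a1 at 0.18 and Postn at 0.037. Gsn, the most abundant of them, had 7632 to 9076 in vehicle and 11779, 31666 and 27369 in doxorubicin. Mesothelial markers were higher in 5 of 5 (median 1.39, 167 to 345 against 318, 748 and 624). Markers of mural cells, which wrap the same vessels, were higher in 5 of 9 tested, with a median of 0.15 and groups that did not overlap in 0 (19.2% of all genes higher, 22.6% lower). All 10 cardiomyocyte markers were lower, with a median of -1.44. The 7 lymphocyte markers summed to at most 62.9 in any library. The part of cell composition and of depth in the endothelial differences was not tested.

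**Figure D5:**
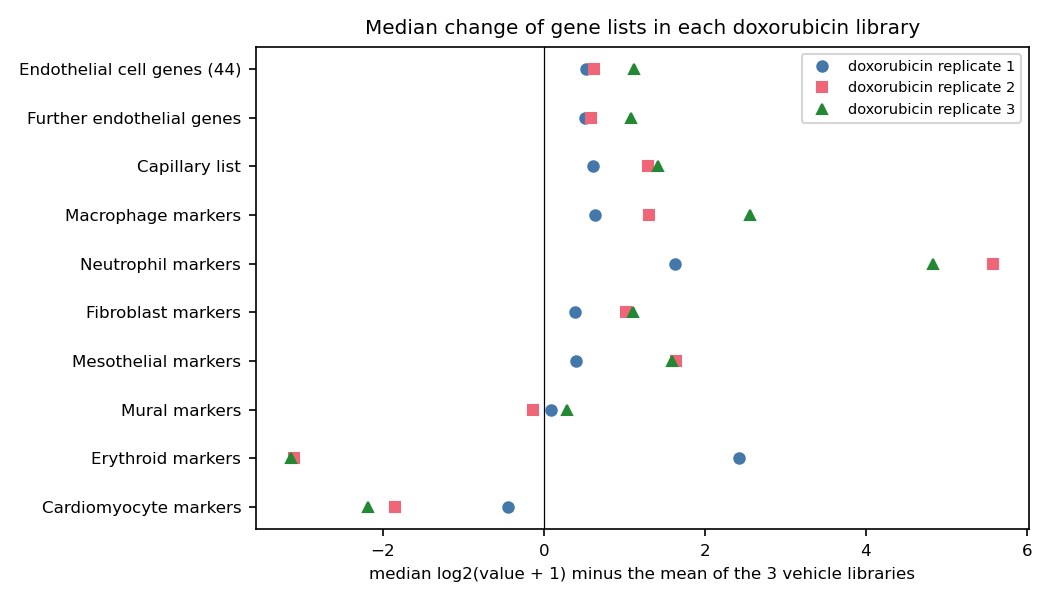
Median log2(value + 1) of each gene list in each doxorubicin library, minus the mean of the 3 vehicle libraries. The endothelial list lies at 0.53, 0.62 and 1.11, below the macrophage and neutrophil lists in each replicate, above the mural list, and opposite in sign to the cardiomyocyte list.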

How the data were processed

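RNA from settled ventricular cells was sequenced in 3 vehicle and 3 doxorubicin libraries, 1 per mouse, grouped by their titles. Per the labels' protocols, reads were aligned to mm10 with RefSeq genes using STAR (2.6.1a per the submitters' processing notes, which also name Salmon with no role). The authors deposited normalized read counts, a signal that is never negative and not whole; the normalization, strand use and filters are not stated in those sources. Values were used as deposited. Genes averaging 10 or more across the 6 libraries were tested on log2(value + 1) with limma 3.58.1 in R 4.3.3 (trended prior, two-sided, Benjamini-Hochberg, threshold 0.05). The fit was checked on simulated data with an equal spread in all libraries. That check does not cover a doxorubicin group in which replicate 1 lies near vehicle. Fold changes on log2(value + 1) understate low genes. An exact permutation test of 3 against 3 cannot go below 0.1 and was not used. All 44 members passed the filter; their means were at least 156. Coordinates are from RefSeq GRCm38.p6, lengths from GENCODE. Depth was estimated from the most common low value. The members and lists were chosen with earlier results of these data known. All members are named; other genes are named as the smallest unadjusted p or highest level of their list, or as ligands or defining markers, some of them (Sema3g, S1pr1, Timp4, Car4, Prox1, Sox10, Pf4 and the named ligands) chosen after their values were seen.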

Additional observations from a re-analysis of the deposited data

How the results depend on the processing

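The median difference of the endothelial genes (0.79) kept its direction and stayed within the spread between doxorubicin libraries (SD 0.32) under all alternatives run, from 0.63 to 0.88 when each library was left out in turn. It was 1.09 with libraries scaled to equal totals, where the median over all genes was 0.29, or 0.80 relative to that shift. Equal totals gave 37 members higher and 1 lower without overlap, against 30 and 1, and 4584 and 1258 of all genes, against 2401 and 2820. The number of genes called depended on doxorubicin replicate 1. limma's library weights called 1954 genes higher and 2318 lower, 26 and 2 of them members. Leaving out each library in turn gave 0 to 2421 higher and 0 to 2715 lower, 0 to 30 and 0 to 2 of them members, and members without overlap ran from 30 to 36 higher and 1 to 3 lower; all nonzero numbers of calls came without doxorubicin replicate 1. No other alternative called a gene (0 higher, 0 lower; between 1150 and 3901 higher and between 1023 and 2538 lower at an unadjusted p under 0.05). The 4 genes with differences near 0 turned sign. Kdr (-0.26) was 0.043 with equal totals, 0.097 with quantile normalization and -0.57 to 0.059 without a library. Nrp1 (-0.0095) was 0.29, 0.28 and -0.22 to 0.24 in the same order. Ets1 (0.022) was -0.17 with library weights, -0.045 with the class covariate and -0.17 to 0.24 without a library. Nrp2 (0.0076) was -0.24, -0.11 and -0.16 to 0.32 in that order. The cause was not tested. Deviations of same-numbered libraries from their group means had correlations of -0.128, 0.0332 and -0.0928. Those of differently numbered libraries ran from -0.183 to 0.223. With 3 libraries per group, such correlations cannot show whether the numbers pair the libraries. With a replicate block limma still called 0 genes higher and 0 lower, and the members' median was 0.79.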
